A study of Mus musculus with 12 samples.

Results

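Cdkn1a, which encodes the cyclin-dependent kinase inhibitor p21, and 9 further genes known as targets of the tumour suppressor p53 were followed in whole mouse liver. The genes were Cdkn1a, Mdm2, Ccng1, Gadd45a, Gadd45b, Gadd45g, Trp53inp1, Phlda3, Btg2 and Sesn2. They were taken by name from the arrays, 10 of the 36095 gene names outside the controls, and 13 of 55681 probes. Of the genes, 8 had a single probe, Trp53inp1 had 2 and Cdkn1a had 3. Cdkn1a was selected on its level in the 6-week arrays, high in knockout and low in wild type, and the other 9 genes were chosen by name as p53 targets around it. Every comparison that uses the 6-week arrays is therefore given for these genes as a description: no p is printed for them there, and a count past the threshold only describes the fit and supports nothing. Tests are given for the 12-week comparison.

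The animals were BALB/c mice, untreated per the labels, and RNA came from the whole organ. The groups were interleukin-18 knockout at 6 weeks, wild type at 6 weeks, interleukin-18 knockout at 12 weeks and wild type at 12 weeks, with 3 arrays each, called biological replicates in the labels. How the knockout allele was made, the sex of the mice and the hour at which livers were taken are not given in the sources used here. Interleukin-18 is an inflammasome-matured cytokine known for driving interferon-gamma release. Levels are log2 values on each array's own scale, where 0 stands for the 75th percentile of its processed signals, and levels of different probes are not set against each other.

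The p53 protein is a transcription factor that is stabilised after DNA damage and other stress and binds paired half-sites in DNA. Its targets include arrest genes (Cdkn1a, the Gadd45 genes, Btg2), genes that feed back on p53 itself (Mdm2, Ccng1, Trp53inp1) and genes that restrain growth signalling (Phlda3, Sesn2). Many of them also answer to other regulators. In liver, p21 is known for restraining hepatocyte division after injury and partial hepatectomy.

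The Il18 probe gave levels of -0.02, -0.02 and -0.36 in 6-week knockout livers, against 2.44, 2.41 and 2.35 in 6-week wild type. Its signal was 5.78-fold lower in the knockout at 6 weeks and 5.04-fold lower at 12 weeks, and it was still well above background on every knockout array. Where this probe lies relative to the deletion is not given. The 75th percentile ran from 346.7 to 419.8 scanner units and 50.1% to 57.7% of spots were well above background. On slide 1 were all 6-week wild type arrays plus 1 array of the 12-week wild type (its replicate 1); the other 8 arrays were on slide 2. At 6 weeks slide and genotype therefore cannot be told apart. Among hepatocyte markers, Apoa1 and Cps1 and the other 3 tested were present in every group. Their summed signals, in units of the 75th percentile, were 3313 to 3751 in 6-week knockout and 3644 to 3768 in 6-week wild type. At 12 weeks they were 2921 to 3233 in knockout and 3325 to 3630 in wild type, where the genotypes did not overlap. Of the 5, 1 was past the threshold as higher at 6 weeks, beside 21.2% of all genes. At 12 weeks 1 was higher and 1 lower, beside 8.20% of all genes.

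Cdkn1a was high in the 6-week knockout and low in each of the other groups. Its main probe, A_51_P363947 (chr17:29237377-29237436, plus strand, mm9), is printed 10 times on each array. The levels were 1.58, 1.28 and 1.97 in 6-week knockout livers, against -3.91, -3.82 and -3.48 in 6-week wild type. At 12 weeks they were -1.77, -2.67 and -3.02 in knockout livers, against -2.58, -2.53 and -2.46 in wild type. All 3 arrays of the 6-week knockout lay above all other arrays, the 6-week wild type lay below all other arrays, and the 12-week groups overlapped.

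Within an array the spots of this probe varied with an SD of 0.0365 to 0.386 on the log2 scale, and the widest spread was in the dim 6-week wild type. In scanner units the averaged spots gave 921 to 1356 in 6-week knockout, against 27.9 to 36.7 in 6-week wild type. In the 6-week wild type 8 of 10, 4 of 10 and 9 of 9 usable spots were well above background, so that 2 of its 3 arrays measured the gene by the majority of their spots.

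**Figure D1:**
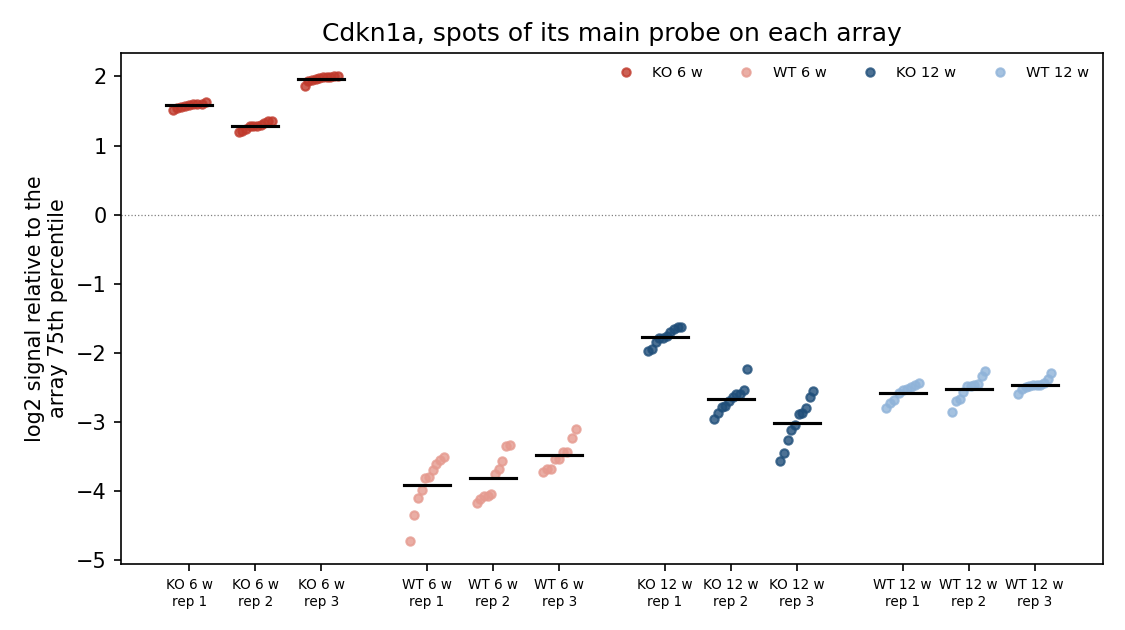
Each point is one usable spot of the main Cdkn1a probe, as log2 signal relative to the array's 75th percentile, for the 12 arrays in the order 6-week knockout, 6-week wild type, 12-week knockout and 12-week wild type; black lines are array means. The 6-week knockout arrays sit at 1.28 to 1.97, the 6-week wild type at -3.91 to -3.48, and the 12-week arrays between -3.02 and -1.77.

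The group means were 1.61 ± 0.34 in 6-week knockout and -3.74 ± 0.22 in 6-week wild type, and -2.49 ± 0.64 in 12-week knockout and -2.52 ± 0.06 in 12-week wild type (SD, n = 3 each). The knockout minus wild type difference was 5.35 ± 0.28 at 6 weeks (SE of the fit), a 40.8-fold higher signal and the second largest rise among the 22128 genes fitted. The difference was 3.73 ± 0.17 when the background was subtracted by another model (normexp) and an offset of 50 scanner units was added. The offset raises dim signals and so shrinks differences from them. At 12 weeks the difference was 0.04 ± 0.28 and did not pass (limma adjusted p = 0.950). Over the fits that left out an array the 12-week value ran from -0.32 to 0.30. It was -0.32 without replicate 1 of the knockout (adjusted p = 0.413, with a range of 0.413 to 0.993 over the alternatives).

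The 12-week minus 6-week difference of Cdkn1a had opposite signs in the genotypes. In wild type, age and slide largely coincide, and the hour of collection is not given, so an effect of age was not tested. In knockout livers the 12-week level was lower than the 6-week level by a difference of -4.10 ± 0.28, or 17.1-fold (-3.14 with normexp). In wild type livers it was higher at 12 weeks by 1.21 ± 0.28, or 2.32-fold. With normexp the wild type value was 0.48, below the threshold, and it was also below it with the slide as a fixed or random block (1.16 and 1.19) and without the filter on dim probes. It was below it too without replicates 1 or 2 of the 6-week wild type or replicates 2 or 3 of the 12-week wild type. On slide 1 replicate 1 of the 12-week wild type had -2.58, and the 6-week wild type arrays had -3.91, -3.82 and -3.48. A single array stands for 12 weeks there, and age and slide were not tested apart. On slide 2, where all knockout arrays lay, the 6-week knockout exceeded the 12-week wild type arrays (1.28 to 1.97 against -2.53 and -2.46). These groups differ in both genotype and age, and Cdkn1a was selected on the 6-week values, so this only describes the levels.

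The other Cdkn1a probes were dim and were not tested. Probe A_55_P1976204, which starts 2078 bases upstream of the main probe, read -4.20, -4.10 and -4.18 in 6-week knockout, where 2 arrays were well above background, against -6.43, -5.94 and -6.24 in 6-week wild type, where none were. Taking the lowest detectable signal for the dim group, this is at least 1.02-fold higher, a bound that the faint signal sets. Probe A_55_P1986282, 9391 bases upstream of the main probe and assigned by the files to another Cdkn1a transcript, was well above background on 1 array of the 6-week knockout and on none of the 6-week wild type, so no fold is given for it.

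The sequences in front of the Cdkn1a starts are shown because one of them carries a near-complete p53 site. They come from RefSeq windows on GRCm38, a different build from the probe positions, of which the 250 bases before each annotated start were searched on both strands. Of the 10 genes, 9 matched with 10 windows, and Trp53inp1 did not. Cdkn1a has windows at 2 starts 2790 bases apart, chr17:29090729-29090978 and chr17:29093519-29093768, both on the plus strand. Capitals mark matches to the p53 consensus, either its 10-base half-site or the 20-base site with up to 1 mismatch.
Cdkn1a, upstream start: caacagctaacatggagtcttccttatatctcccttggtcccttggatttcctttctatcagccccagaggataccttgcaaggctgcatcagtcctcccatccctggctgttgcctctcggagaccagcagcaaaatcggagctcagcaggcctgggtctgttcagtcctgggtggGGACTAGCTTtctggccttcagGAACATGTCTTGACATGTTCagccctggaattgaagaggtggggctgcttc
Cdkn1a, downstream start: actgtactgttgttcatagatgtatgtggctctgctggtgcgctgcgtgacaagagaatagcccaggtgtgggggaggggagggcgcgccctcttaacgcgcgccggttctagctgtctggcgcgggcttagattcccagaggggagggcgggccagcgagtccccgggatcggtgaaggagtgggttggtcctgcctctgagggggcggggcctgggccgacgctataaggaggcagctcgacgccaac
The 20 bases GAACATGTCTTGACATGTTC begin 51 bases before the upstream start. They also hold a pair of CATG cores with 6 bases between them, a spacing found in 0.49% of 32851 promoter windows of the same length. The downstream window held neither a site nor a half-site.

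Stretches of 60 bases from the other members with a half-site show how the letters differ. They are Mdm2 at chr10:117710910-117710969, Ccng1 at chr11:40755437-40755496 and Gadd45a at chr6:67037413-67037472, all minus strand on GRCm38.
Mdm2: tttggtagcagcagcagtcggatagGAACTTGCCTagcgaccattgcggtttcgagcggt
Ccng1: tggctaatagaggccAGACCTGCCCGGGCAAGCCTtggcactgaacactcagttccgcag
Gadd45a: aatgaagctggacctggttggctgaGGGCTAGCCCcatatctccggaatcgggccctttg
The half-site occurred in 4 of the 9 genes and in 7.13% of all windows, and the 20-base site with up to 1 mismatch in 2 of the 9, Cdkn1a and Ccng1, and in 0.0761% of all windows. Allowing 1 mismatch was a choice made after the Cdkn1a letters were read. Gadd45b and Gadd45g held the E-box CACGTG (6.02% of windows), and Btg2 held TGACGTCA (1.55%). None of the 10 windows held TTATGTAA (0.819% of all windows). These are matches of letters, and binding was not measured.

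The genes that feed back on p53 differed among themselves. Mdm2, the ubiquitin ligase that degrades p53, read 3.18, 3.37 and 3.42 in 6-week knockout, against 3.06, 3.03 and 3.22 in 6-week wild type. At 12 weeks it read 3.31, 3.35 and 3.25 in knockout, against 3.28, 3.47 and 3.42 in wild type. The groups overlapped at both ages. The differences were 0.22 ± 0.09 at 6 weeks and -0.09 ± 0.09 at 12 weeks (adjusted p = 0.588).

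Ccng1, cyclin G1, which recruits a phosphatase to Mdm2, read 0.96, 0.98 and 1.07 in 6-week knockout, against 1.15, 1.35 and 1.25 in 6-week wild type. It read 1.59, 1.45 and 1.48 in 12-week knockout, against 0.91, 0.94 and 0.94 in 12-week wild type. The knockout lay below wild type at 6 weeks and above it at 12 weeks, with no overlap at either age. The difference was -0.24 ± 0.08 at 6 weeks and 0.58 ± 0.08 at 12 weeks, a 1.49-fold rise (adjusted p = 0.00334, higher in 3 of 3 arrays). The 12-week rise passed in 12 of 12 fits that left out an array. Within slide 2, with 2 wild type arrays, it was 0.57 with an adjusted p of 0.0730, the highest of the alternatives (0.00107 to 0.0730).

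Trp53inp1 encodes a nuclear protein that enhances p53 activity under stress. Its main probe read 3.05, 3.46 and 3.80 in 6-week knockout, against 2.05, 2.05 and 2.69 in 6-week wild type. It read 2.43, 2.39 and 2.23 in 12-week knockout, against 3.24, 3.22 and 2.78 in 12-week wild type. The knockout was thus the higher group at 6 weeks and the lower one at 12 weeks, without overlap. The difference was 1.17 ± 0.22 at 6 weeks and -0.73 ± 0.22 at 12 weeks, where it did not pass (adjusted p = 0.0715, lower in 3 of 3 arrays). The second probe (chr4:11092530-11092589, plus strand, mm9) gave 0.43 at 6 weeks and -0.60 at 12 weeks, the same signs with a smaller 6-week difference.

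The Gadd45 genes encode small stress proteins that bind cell-cycle kinases and a MAP kinase kinase kinase. Gadd45a, the family member known best as a p53 target, read -1.14, -2.35 and -2.52 in 6-week knockout, against -0.17, -0.09 and -0.97 in 6-week wild type. At 12 weeks it read 1.02, 0.57 and 0.21 in knockout, against -0.51, -0.75 and 0.29 in wild type. It was lowest in the group where Cdkn1a was highest, and the 12-week groups overlapped. The difference was -1.59 ± 0.41 at 6 weeks, 3.01-fold lower, and 0.92 ± 0.41 at 12 weeks (adjusted p = 0.195).

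Gadd45b, known as an immediate early gene of liver regeneration, fell at 12 weeks. It read -1.76, -1.97 and -1.88 in 12-week knockout, against -1.25, -0.33 and -0.47 in 12-week wild type. Every knockout array was below every wild type array, and the same held at 6 weeks (-1.42, -1.17 and -1.08 in knockout, against -0.82, -0.47 and -0.48 in wild type). The difference was -1.19 ± 0.22 at 12 weeks, 2.28-fold lower (adjusted p = 0.0111), and -0.63 ± 0.22 at 6 weeks (-1.49 with the slide as a fixed block). The 12-week fall passed in 12 of 12 fits without an array and within slide 2 (-1.47, adjusted p = 0.0194). A fit of the 12-week arrays alone gave an adjusted p of 0.0677, the highest of the alternatives (0.00163 to 0.0677).

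Gadd45g varied widely between arrays of a group, except in the 12-week knockout. It read 6.17, 4.79 and 3.99 in 6-week knockout, against 2.64, 1.27 and 2.50 in 6-week wild type. It read 6.18, 5.63 and 5.87 in 12-week knockout, against 7.10, 2.15 and 4.87 in 12-week wild type. The arrays of the 12-week wild type spanned 30.8-fold, so the genotypes overlapped widely there. The difference was 2.85 ± 1.02 at 6 weeks and 1.19 ± 1.02 at 12 weeks (adjusted p = 0.511), and without replicate 2 of the 12-week wild type the 12-week value was -0.0905 (adjusted p = 0.962, over a range of 0.127 to 0.962). The 6-week Gadd45g value was 6.43 with the slide as a fixed block and 4.25 with it as a random block.

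**Figure D2:**
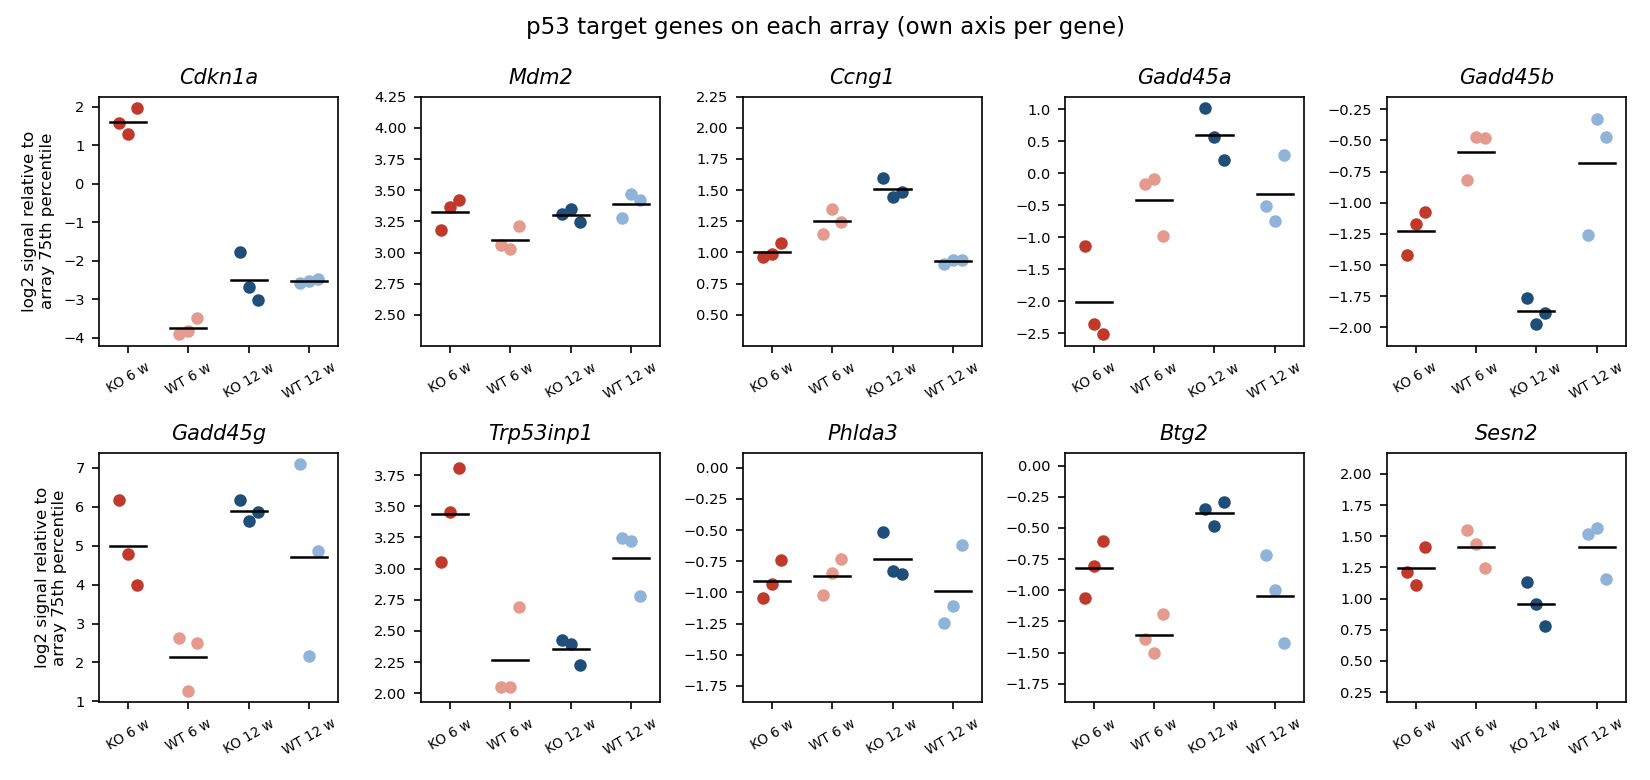
Each panel shows one gene, with points for the 3 arrays of each group from left to right, 6-week knockout, 6-week wild type, 12-week knockout and 12-week wild type, as log2 signal relative to the array's 75th percentile; black lines are group means and each panel has its own axis. Cdkn1a separates the 6-week knockout at 1.28 to 1.97, Gadd45a is lowest in that group, and Mdm2 and Phlda3 overlap between the genotypes at both ages.

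Btg2, an antiproliferative gene induced by p53 and by growth factors, rose at 12 weeks. It read -0.35, -0.49 and -0.29 in 12-week knockout, against -0.72, -0.99 and -1.42 in 12-week wild type. At 6 weeks it read -1.06, -0.80 and -0.61 in knockout, against -1.39, -1.50 and -1.19 in wild type. The knockout was above wild type at both ages without overlap. The difference was 0.67 ± 0.18 at 12 weeks, 1.59-fold higher (adjusted p = 0.0447), and 0.54 ± 0.18 at 6 weeks. The 12-week call lay at the threshold: it passed in 2 of 12 fits that left out an array, those without replicate 1 of the 12-week wild type or of the 6-week knockout, and adjusted p ran from 0.0259 to 0.132 over the alternatives.

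The genes that restrain growth signalling did not pass at 12 weeks. Phlda3, which keeps the kinase Akt from the membrane, read -1.05, -0.93 and -0.74 in 6-week knockout, against -1.02, -0.85 and -0.73 in 6-week wild type. The groups overlapped then and at 12 weeks (-0.51, -0.83 and -0.85 in knockout, against -1.24, -1.11 and -0.62 in wild type). Its differences were -0.04 ± 0.17 at 6 weeks and 0.26 ± 0.17 at 12 weeks (adjusted p = 0.378).

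Sesn2, a sestrin that restrains the growth kinase mTORC1 when amino acids are short, read 1.13, 0.96 and 0.78 in 12-week knockout, against 1.52, 1.56 and 1.16 in 12-week wild type. The groups lay 0.0292 apart at their nearest arrays. The 12-week difference of -0.46 ± 0.14 did not pass (adjusted p = 0.0723). Without replicate 3 of the 12-week wild type it was -0.59 and passed (adjusted p = 0.0314, over a range of 0.0314 to 0.273). At 6 weeks the arrays overlapped, with 1.21, 1.11 and 1.42 in knockout, against 1.55, 1.44 and 1.25 in wild type, and a difference of -0.16 ± 0.14.

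Counted together, 3 of the 10 genes passed at 12 weeks, Ccng1 and Btg2 higher and Gadd45b lower, beside 8.20% of all genes (5.70% higher and 2.49% lower) in that comparison. The median difference of the 10 was 0.15, beside 0.02 over all genes. Without an array the count was 2 or 3, beside 3.05% to 9.14% of all genes. Within slide 2 it was 1, Gadd45b, beside 0.915% of all genes. At 12 weeks the genotypes did not overlap for 5 of the 10, beside 27.4% of all genes. At 6 weeks 4 of the 10 were past the threshold, Cdkn1a and Trp53inp1 higher and Ccng1 and Gadd45a lower, beside 21.2% of all genes (12.1% higher and 9.05% lower), and the groups did not overlap for 7, beside 47.8%. The 6-week count ran from 2 to 7 without an array: it was 2 without replicate 2 of the 6-week wild type or replicates 2 or 3 of the 6-week knockout, and 7 without replicate 1 of the 12-week wild type. Over all genes the fits without an array had 11.8% to 27.7% past the threshold at 6 weeks. With the slide as a fixed block 3 genes were past the threshold at 6 weeks, Cdkn1a and Gadd45g higher and Gadd45b lower, beside 2.6% of all genes. With it as a random block they were 2, Cdkn1a and Trp53inp1, beside 5.5%.

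**Figure D3:**
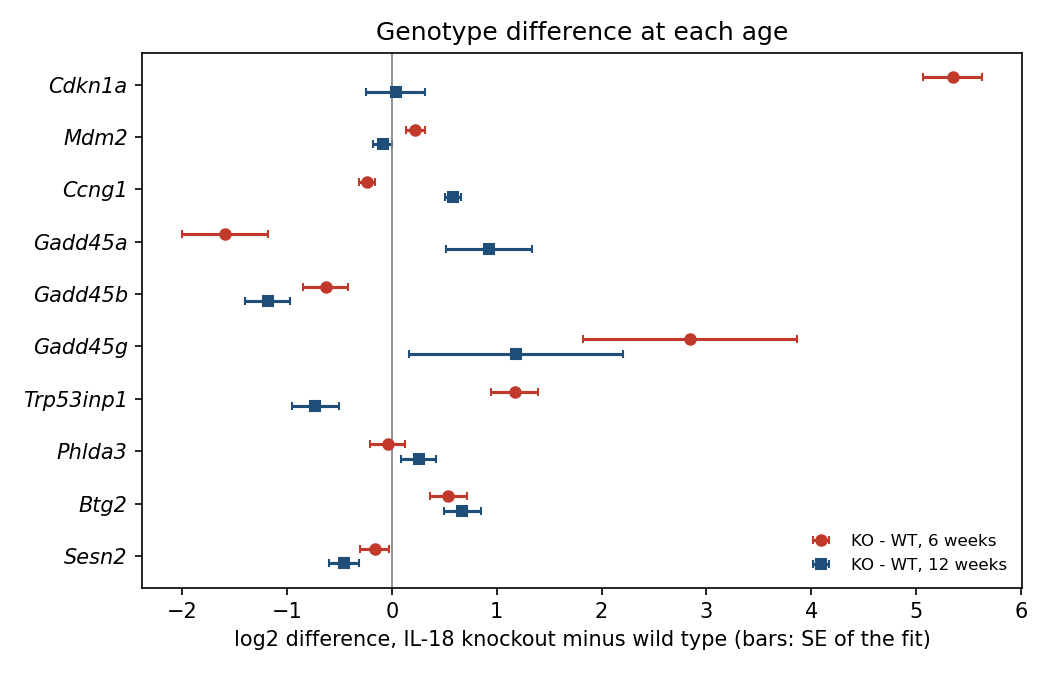
Points are log2 differences, interleukin-18 knockout minus wild type, for the 10 genes at 6 weeks (red circles) and 12 weeks (blue squares), with bars for the SE of the fit. Cdkn1a is at 5.35 at 6 weeks and 0.04 at 12 weeks; Ccng1, Gadd45a and Trp53inp1 lie on opposite sides of 0 at the 2 ages by more than their bars.

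Between the ages, 4 of the 10 genes were past the threshold in the knockout, beside 6.84% of all genes (3.89% higher and 2.95% lower at 12 weeks). Ccng1 (0.50 ± 0.08) and Gadd45a (2.60 ± 0.41) were higher at 12 weeks, and Cdkn1a and Trp53inp1 (-1.09 ± 0.22) were lower. In wild type livers 3 of 10 were past it, beside 8.95% of all genes (4.60% higher and 4.35% lower). There Cdkn1a and Trp53inp1 (0.82 ± 0.22) were higher at 12 weeks and Ccng1 (-0.32 ± 0.08) was lower. The wild type count was 0 with the slide as a random block, beside 4.84% of all genes. It ran from 0 (without replicate 2 of the 6-week wild type) to 3 without an array, beside 4.42% to 17.2% of all genes. It was 1 without replicate 1 of the 6-week wild type, or replicates 2 or 3 of the 12-week wild type. These age comparisons share the 6-week arrays with the genotype comparison and repeat part of it. The genotype difference itself, taken as the 12-week minus the 6-week value, was past the threshold for 4 of the 10 (Ccng1 and Gadd45a higher, Cdkn1a and Trp53inp1 lower), beside 10.2% of all genes (5.41% higher and 4.81% lower).

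The wider p53 pathway was read from lists of 27 other p53 targets and 17 regulators. Of the other targets 24 were tested, and Eda2r, Rrm2b and Dram1 were not well above background in any whole group. At 6 weeks 3 of the 24 rose and 1 fell, beside 21.2% of all genes, with a median difference of 0.11, beside 0.02 over all genes. Ddit4, an mTORC1 inhibitor also induced by glucocorticoid and low oxygen, rose by 1.47 ± 0.26 (adjusted p = 0.00480). Triap1, an inhibitor of apoptosis, rose by 0.42 ± 0.08 (adjusted p = 0.00559), the death receptor gene Fas rose by 0.38 ± 0.12 (adjusted p = 0.0475), and Ei24 fell by 0.40 (adjusted p = 0.0115). With the slide as a fixed block, which leans on the single 12-week wild type array of slide 1, none of the 24 passed in limma (1 higher and 4 lower at an unadjusted p under 0.05), and with it as a random block only Ddit4 did (adjusted p = 0.0301). Over all genes 2.6% passed with the fixed block and 5.5% with the random block. Fas passed in 2 of 12 fits without an array.

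At 12 weeks 4 of the 24 rose and 1 fell, beside 8.20% of all genes, with a median of 0.06. Triap1 rose by 0.49 ± 0.08 (adjusted p = 0.00625), the nuclease gene Aen by 0.53 ± 0.10 (adjusted p = 0.0156), Pidd1, which activates caspase-2, by 0.50 ± 0.11 (adjusted p = 0.0233), and the repair gene Xpc by 0.37 ± 0.10 (adjusted p = 0.0487). Pmaip1, which encodes the pro-apoptotic protein Noxa, fell by 0.96 (adjusted p = 0.0289). The pro-apoptotic Bax did not pass at 6 weeks (0.003 ± 0.13, adjusted p = 0.989) or at 12 weeks (-0.27 ± 0.13, adjusted p = 0.237). Within slide 2 none of the 24 passed in limma (5 higher and 3 lower at an unadjusted p under 0.05), nor with the 12-week arrays fitted alone (6 higher and 2 lower). Over all genes 0.915% passed within slide 2 and 1.88% with the 12-week arrays alone. Leaving out 1 array gave 1 to 5, beside 3.05% to 9.14% of all genes. The count of 1 came without replicate 1 of the 12-week knockout, and it was 3 without any other single 12-week array.

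Trp53 itself, the p53 gene, did not pass at 6 weeks (0.28 ± 0.12, adjusted p = 0.119) or at 12 weeks (0.09 ± 0.12, adjusted p = 0.683), and neither did Mdm4, its inhibitor (0.13 ± 0.29, adjusted p = 0.766, and -0.41 ± 0.29, adjusted p = 0.416). Of the 17 regulators 3 fell and none rose at each age in limma. Over all genes 21.2% were past the threshold at 6 weeks and 8.20% at 12 weeks. At an unadjusted p under 0.05, 5 regulators were higher at 6 weeks and 2 at 12 weeks. Atm, the kinase that activates p53 after double-strand breaks, fell by 1.16 at 6 weeks (adjusted p = 0.000219) and by 1.04 at 12 weeks (adjusted p = 0.00184). Its fall at 6 weeks passed with the slide as a fixed block (adjusted p = 0.0300, over a range of 6.76e-05 to 0.03 for its alternatives). The p53 relatives Trp63 (-1.15 ± 0.22, adjusted p = 0.00691) and Trp73 (-0.78 ± 0.21, adjusted p = 0.0265) fell at 6 weeks, and Ppp1r13b (-0.49 ± 0.09, adjusted p = 0.00972) and the kinase gene Hipk2 (-0.38 ± 0.09, adjusted p = 0.0334) at 12 weeks. Within slide 2 none of the 17 passed at 12 weeks in limma (1 higher and 3 lower at an unadjusted p under 0.05), beside 0.915% of all genes. There Atm had -1.05 (adjusted p = 0.0625, over a range of 0.000763 to 0.0625). Hipk2 passed in 5 of 12 fits without an array. Trp73 passed in 7 of 12 fits without an array, and neither Trp63 nor Trp73 passed with the slide as a fixed block.

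**Figure D4:**
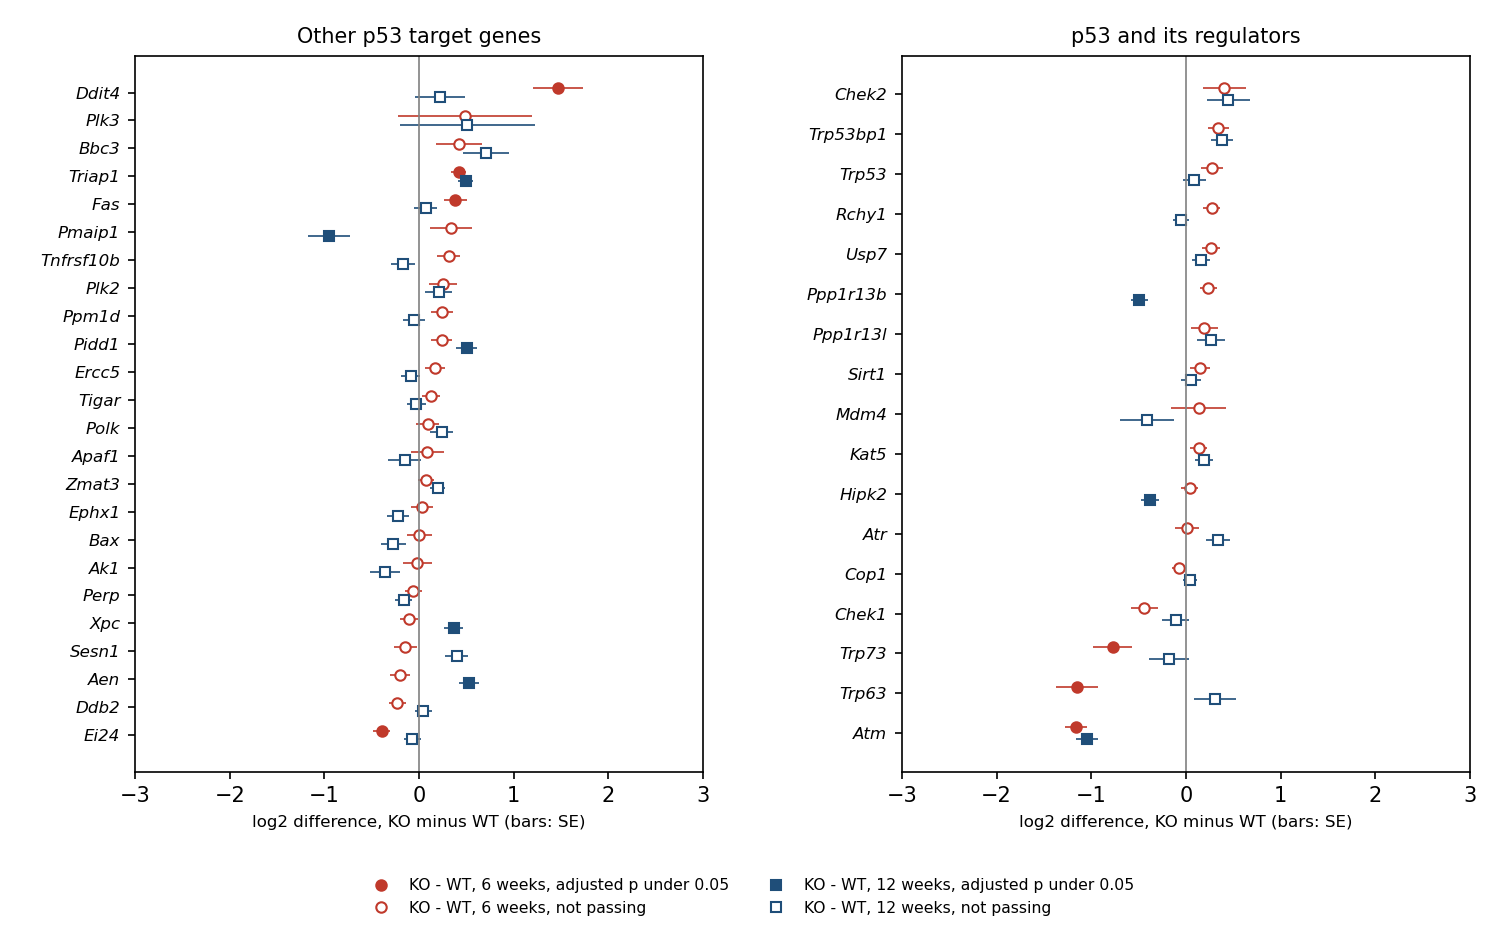
Log2 differences, knockout minus wild type, with SE bars, for the 24 tested further p53 targets (left) and for the 17 regulators, p53's own gene among them (right); red circles are 6 weeks, blue squares 12 weeks, and filled symbols have an adjusted p under 0.05. Ddit4 at 1.47 and Atm at -1.16 and -1.04 are among the values farthest from 0, and the points of Trp53 and Bax are open at both ages.

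Other cyclin-dependent kinase inhibitors moved in both directions at 6 weeks. Of 5 tested, 1 rose and 2 fell at 6 weeks, beside 21.2% of all genes. Cdkn2b, which encodes p15, rose at least 1.82-fold, a bound because no 6-week wild type array measured it well above background. Its limma adjusted p of 0.000855 comes from the fitted difference, which uses the dim wild type readings, and not from this bound. Cdkn1c, which encodes p57, fell by 1.0 (adjusted p = 0.00123) and Cdkn2c fell by 0.81 (adjusted p = 0.00180). At 12 weeks Cdkn1b, which encodes p27, rose by 0.44 ± 0.09 (adjusted p = 0.0203) and Cdkn2d by 0.78 ± 0.17 (adjusted p = 0.0223). These were 2 of 5, beside 8.20% of all genes. Cdkn1c kept its 6-week call with the slide as a fixed block and Cdkn2b and Cdkn2c did not, beside 2.6% of all genes past the threshold. Within slide 2 no inhibitor passed at 12 weeks in limma (2 higher and 1 lower at an unadjusted p under 0.05), beside 0.915% of all genes.

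Among 8 cyclins and kinases tested, the G1 cyclin Ccnd1 fell by 1.05 at 6 weeks (adjusted p = 0.0356) and by 2.09 at 12 weeks (adjusted p = 0.00450). At 6 weeks Ccne1 fell by 1.42 (adjusted p = 0.000621) and Ccna2, measured on 2 of the 3 wild type arrays, rose by 1.57 (adjusted p = 0.0113). Ccna2 had 0.57 with the slide as a fixed block, where neither it nor Ccnd1 passed at 6 weeks, while Ccne1 did (adjusted p = 0.00969, over a range of 0.000211 to 0.00969). Of 20 proliferation genes 7 rose and none fell at 6 weeks in limma, beside 12.1% of all genes higher and 9.05% lower. At an unadjusted p under 0.05, 10 were higher and 1 lower. Among the 7, Mcm7 rose by 0.74 ± 0.10 (adjusted p = 0.00102), Aurka by 1.03 ± 0.23 (adjusted p = 0.0134) and Mki67 by 1.33 ± 0.34 (adjusted p = 0.0224). With the slide as a fixed block none of the 20 passed at 6 weeks, beside 2.6% of all genes. With it as a random block 1 did, beside 5.5%. At 12 weeks Rrm2 rose by 1.06 (adjusted p = 0.0312), and Ccnb1 and Ccnb2 fell by 1.25 and 0.91 (adjusted p = 0.0187 and 0.0358), beside 8.20% of all genes. Within slide 2 none of the 20 passed in limma (2 higher and 11 lower at an unadjusted p under 0.05), beside 0.915% of all genes. With the slide as a fixed block 4 passed as lower and none as higher at 12 weeks (9 lower and 2 higher unadjusted), beside 5.78% of all genes.

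Genes of the circadian clock also moved at both ages. At 6 weeks 5 of 19 clock genes rose and 10 fell, beside 21.2% of all genes past the threshold. At 12 weeks 8 rose and none fell in limma, beside 8.20% of all genes. At an unadjusted p under 0.05, 9 were higher and 2 lower at 12 weeks. With the slide as a fixed block 4 rose and 8 fell at 6 weeks, beside 2.6% of all genes. Within slide 2 the 12-week count was 1, beside 0.915% of all genes. The repressor Nfil3 read 4.69, 4.94 and 4.96 in 6-week knockout, against 2.16, 2.12 and 1.89 in 6-week wild type, a rise of 2.81 ± 0.13 (adjusted p = 3.63e-06). The activator Arntl rose by 5.16 ± 0.38 (adjusted p = 4.08e-05). Dbp, a clock output gene, read 0.26, 0.15 and -0.08 in 6-week knockout, against 7.04, 6.92 and 6.82 in 6-week wild type, and fell by 6.82 (adjusted p = 6.27e-07). Tef and Nr1d1 fell by 2.79 and 1.76 (adjusted p = 2.73e-05 and 0.00571). Ciart, not well above background on any 6-week knockout array, was at least 21.8-fold lower. Its limma adjusted p of 4.08e-05 comes from the fitted difference, which uses the dim knockout readings, and not from this bound. At 12 weeks Dbp rose by 1.23 ± 0.26 (adjusted p = 0.0190). The part of these clock differences in the Cdkn1a difference was not tested.

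Likeness to Cdkn1a was measured by Pearson's r over the 12 arrays, as a description: the 12 points fall into 4 groups, and the 6-week knockout carries most of the range. The 8 highest values belonged to Nfil3 (0.982), Ssr4 (0.977), Appl1 (0.974), Grk5 (0.971), Pnrc1 (0.966), Tpst2 (0.961), Gmeb1 (0.959) and Skil (0.957). The 4 lowest belonged to Dbp (-0.963), Neil2 (-0.956), Pcsk4 (-0.940) and Tmc4 (-0.934). Over the 9 arrays without the 6-week knockout r was 0.802 for Nfil3 and -0.454 for Dbp. Among the p53 targets r was 0.764 for Trp53inp1 and -0.713 for Gadd45a over 12 arrays, and between -0.378 and 0.389 for the other 7. Without the 6-week knockout Mdm2 had 0.800, Gadd45g 0.679, Btg2 0.610, Trp53inp1 0.516 and Gadd45a 0.490. The remaining p53 targets lay between -0.407 and 0.277.

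**Figure D5:**
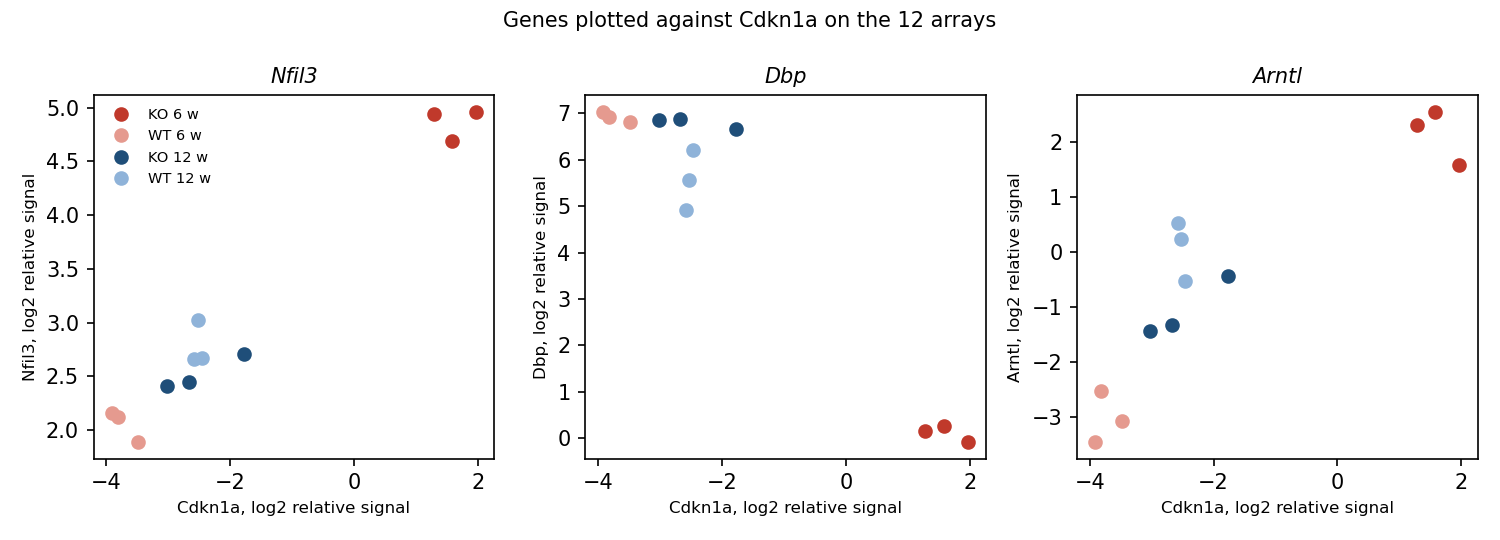
Each point is one array, with the level of Cdkn1a on the horizontal axis and that of Nfil3, Dbp or Arntl on the vertical axis, both as log2 signal relative to the array's 75th percentile; colours mark the 4 groups. The 6-week knockout arrays, with Cdkn1a at 1.28 to 1.97, have the highest Nfil3 and Arntl and the lowest Dbp levels.

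Genes that FoxO factors activate and insulin represses also moved. Of 8 tested, 4 rose and 1 fell at 6 weeks, beside 21.2% of all genes. At 12 weeks 4 fell and none rose in limma, beside 8.20% of all genes. The 12-week counts were the same at an unadjusted p under 0.05. With the slide as a fixed block 1 rose and none fell at 6 weeks, beside 2.6% of all genes. Within slide 2 the 12-week count was 1, beside 0.915% of all genes. Pdk4, a switch from glucose to fat oxidation, rose by 2.36 ± 0.27 at 6 weeks (adjusted p = 0.000411) and fell by 1.27 at 12 weeks (adjusted p = 0.0194). Ccng2, a cyclin that arrests cells, rose by 1.92 ± 0.21 (adjusted p = 0.000377) and G6pc, the last step of glucose output, by 1.90 ± 0.29 (adjusted p = 0.00218) at 6 weeks.

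Markers of other cells also differed, not all of them at both ages, and their part in the p53 target results was not tested. Of the erythroid markers 3 were tested, with Alas2 and Slc4a1 higher and Klf1 lower at 6 weeks. The 3 summed to 42.7 to 51.4 in 6-week knockout, against 16.08 to 19.85 in 6-week wild type, in units of the 75th percentile. At 12 weeks they summed to 39.0 to 54.1 in knockout, against 33.9 to 38.2 in wild type. Of the neutrophil markers 3 of 5 were tested, with S100a8 and S100a9 higher at 6 weeks. The 3 summed to 2.01 to 2.35 in 6-week knockout, against 1.11 to 1.30 in 6-week wild type. At 12 weeks none of the 3 passed, and the sums overlapped (1.903 to 2.014 in knockout, against 1.946 to 2.1 in wild type). No Kupffer cell marker of 7 passed at either age in limma (none at 6 weeks and 4 lower at 12 weeks at an unadjusted p under 0.05). T and NK cell markers summed to 46.0 to 62.3 in 6-week knockout, against 65.4 to 67.4 in 6-week wild type, with Cd3g lower at both ages. At 12 weeks they summed to 37.1 to 48.0 in knockout, against 61.8 to 101.9 in wild type. B and plasma cell markers summed to 1.364 to 1.499 in 12-week knockout, against 1.94 to 2.65 in 12-week wild type, with 1 of 5 lower. Of 5 endothelial and 5 stellate markers 1 in each list was lower at 6 weeks, and none passed at 12 weeks. Of 4 cholangiocyte markers tested 1 was higher at 6 weeks and 1 lower at 12 weeks. Over all genes 21.2% passed at 6 weeks and 8.20% at 12 weeks. For the erythroid, T and NK cell, and B and plasma cell lists the 12-week genotypes did not overlap. The markers Cd8a, Klrb1c, Ngp and Epcam were not well above background in any whole group. In bulk liver, fewer cells of a type and less RNA per cell cannot be told apart.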

How the data were processed

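Processed signals of 12 arrays, 3 livers for each of 4 groups, were analysed. Per the file headers and the submitters' processing notes, the authors quantified 1-colour (cyanine 3) arrays with Agilent Feature Extraction 10.7.3.1. The authors deposited background-subtracted intensities that were not scaled between arrays, with the mean spot intensity and local background as raw scanner values, and a value table with the same intensities rounded. Probe positions are on mm9.

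Spots marked as outliers were left out, spots of a probe were averaged as log2 intensity, and the array's 75th percentile was subtracted. Probes entered the fit if most of their spots were well above background on all 3 arrays of any 1 group (29804 probes). The probe with the highest mean stood for each of 22128 genes. RefSeq tables (GRCm38) gave current symbols. Group means were fitted over 12 arrays with limma 3.58.1 in R 4.3.3 (8 residual degrees of freedom). Adjusted p is limma's by Benjamini-Hochberg over all genes, with a threshold of 0.05. Errors are SD over arrays or SE of the fit. The script was tested on simulated data.

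The 10 genes, the lists and the alternatives were chosen with earlier results of these data known. From each pathway list the genes named come from those past the threshold, up to 5 per comparison by smallest p, with Trp53, Mdm4, Bax, Ccnd1, Dbp, Arntl and Nr1d1 whatever their result. Likeness took the 8 highest and 4 lowest correlations, leaving out names that are accessions, clones or predicted genes. The number of arrays limits the precision.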

Additional observations from a re-analysis of the deposited data

Results flagged for a closer look

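For 4 of the 10 genes the interaction of genotype and age in the fit (12-week difference minus 6-week difference) was past an adjusted p of 0.05, as for 10.2% of all genes. Because these values use the 6-week arrays on which Cdkn1a was chosen, the count supports nothing and the values are descriptions. For Cdkn1a the interaction was -5.31 ± 0.40 (SE), made of 0.04 at 12 weeks and 5.35 at 6 weeks. For Trp53inp1 it was -1.90 ± 0.31, with the knockout lower than wild type at 12 weeks and higher at 6 weeks. For Gadd45a it was 2.51 ± 0.58, and for Ccng1 it was 0.82 ± 0.11, both with the knockout above wild type at 12 weeks and below it at 6 weeks. Slide and genotype cannot be told apart at 6 weeks.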

How the results depend on the processing

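Of the alternatives to the values reported, 530 kept direction and side of the threshold, and 12 moved, 46 lost the call, 3 gained it and 3 changed sign. The 6-week Cdkn1a difference was 3.73 with normexp. Its other probes gave 2.04 and 0.43, and probe A_55_P1986282 gave -0.56 at 12 weeks, beside 0.04 on the main probe. Most arrays behind each of these 3 values were not well above background, so they do not give the size of a difference, and -0.56 does not give a direction. Cdkn1a could not be fitted when every array had to be well above background. At 12 weeks 1 member passed within slide 2 (Gadd45b), beside 0.915% of all genes. When only the 12-week arrays were fitted 1 passed (Ccng1), beside 1.88%. At 6 weeks 2 passed with the slide as a random block, beside 5.5% of all genes. In wild type by age 1 passed with median scaling, 0 without the filter on dim probes, 1 with the slide as a fixed block, 0 with it as a random block, and 1 with only those 2 groups. The shares of all genes in these fits were, in that order, 5.4%, 3.38%, 3.21%, 4.84% and 2.19%. Of the other p53 targets 2 passed at 6 weeks with median scaling, 0 with a fixed and 1 with a random slide block. The shares of all genes there were 14.3%, 2.6% and 5.5%. At 12 weeks 3 passed with median scaling, 2 without the filter, 3 with a fixed slide block, and 0 within slide 2 or with the 2 groups alone. The shares of all genes were, in that order, 3.59%, 2.32%, 5.78%, 0.915% and 1.88%. Over all genes 4689 passed at 6 weeks, against 3173 with median scaling, 575 with a fixed and 1217 with a random slide block. At 12 weeks 1814 passed, against 795 with median scaling, 203 within slide 2, 836 without the filter and 410 with the 2 groups alone. The causes were not tested, beyond the fewer arrays in the fits within slide 2 and of 2 groups.

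Without 1 array, 2643 to 6202 genes passed at 6 weeks and 678 to 2049 at 12 weeks. The members passing ranged from 2 to 3 at 12 weeks, 2 to 7 at 6 weeks, 0 to 3 in wild type by age and 3 to 5 in knockout by age, and other p53 targets from 3 to 5 at 6 weeks and 1 to 5 at 12 weeks. The shares of all genes ran from 3.05% to 9.14% at 12 weeks and 11.8% to 27.7% at 6 weeks. By age they ran from 4.42% to 17.2% in wild type and 2.77% to 7.99% in knockout. Cdkn1a ranged from 5.17 to 5.51 at 6 weeks and from -0.32 to 0.30 at 12 weeks, and Gadd45g at 12 weeks from -0.0905 to 2.38. Replicate numbers did not pair the samples: deviations of arrays with the same number correlated at -0.086 to 0.18. With the replicate number as a block 2 members passed at 12 weeks, beside 6.36% of all genes, and 5 at 6 weeks, beside 18.4%. By age 1 passed in wild type, beside 7.41%, and 4 in knockout, beside 5.9%. Dim signal limits Cdkn1a in the 6-week wild type, where 1 of 3 arrays was not well above background by most of its spots.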

Other observations

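Other stress and hormone genes measured beside the p53 targets moved in both directions at 6 weeks, where slide and genotype cannot be told apart. Of 7 glucocorticoid-responsive genes 2 rose and 2 fell, beside 21.2% of all genes. Tat, a liver amino acid catabolic enzyme, rose by 0.93 ± 0.20 (adjusted p = 0.0110) and Tsc22d3 by 0.98 ± 0.26 (adjusted p = 0.0245). The metallothionein genes Mt1 and Mt2 fell by 3.66 and 3.90 (adjusted p = 0.000266 and 0.000855). In the fit with a fixed slide block 1 of these 7 genes fell and none rose (1 at an unadjusted p under 0.05), beside 2.6% of all genes. Of 10 targets of ATF4, the transcription factor of the integrated stress response, 2 rose and 2 fell, beside 21.2% of all genes. Atf5 rose by 0.83 ± 0.13 (adjusted p = 0.00284) and Nupr1 by 0.85 ± 0.17 (adjusted p = 0.00871). Vldlr and Trib3 fell by 3.13 and 1.60 (adjusted p = 0.00103 and 0.0142). In the fit with a fixed slide block Vldlr kept its call, and Atf5, Nupr1 and Trib3 did not. At 12 weeks none of the glucocorticoid-responsive genes passed (limma; 1 at an unadjusted p under 0.05), and Nupr1 fell by 0.91 (adjusted p = 0.0139).

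Of 13 immediate early genes tested, 1 rose and 1 fell at 6 weeks, beside 21.2% of all genes. Nr4a1, an orphan nuclear receptor gene, rose by 0.94 ± 0.30 (adjusted p = 0.0488) at 6 weeks and fell by 2.27 at 12 weeks (adjusted p = 0.00334), and Ier3, well above background on 1 knockout array, fell by 1.35 at 6 weeks (adjusted p = 0.00667). Neither 6-week call held with the slide as a fixed or random block, and that of Nr4a1 passed in 2 of 12 fits without an array.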
